A study of Mus musculus with 8 samples.

Results

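The 9 genes described here are 3 immunoglobulin constant region genes (Ighm, Ighd and Igkc) and 6 genes known from B cells (Cd79a, Cd79b, Ms4a1, Cd22, Pax5 and Cd74), taken by name from a table of 19703 genes measured in mouse regulatory T cells. All 9 had a row. They were selected on the level of Ighm, the IgM heavy chain gene, which was abundant in these sorted T cells, and on the role of the other 8 in B cells, so the levels themselves are a description and were not tested. Regulatory T cells (Tregs) are CD4 T cells defined by FOXP3, and these came from Foxp3-GFP reporter mice, whose FOXP3-expressing cells glow green and can be sorted. All sample titles carry WT, the usual short form of wild type. Every culture received beads that engage CD3 and CD28, together with the Th17-favouring cytokines IL6, IL23 and IL1B. One group received FcCD70 as well, a soluble ligand of the costimulatory receptor CD27, and the other, untreated, received none. RNA was sequenced on day 6. The sources used here give neither the age and number of the mice, nor pooling, nor how the cells were purified on day 6. Each p-value therefore rests on differences among samples that could be technical.

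Of 8 samples 7 were used directly, 4 titled untreated and 3 titled FcCD70. In every sample the treatment field states the reverse of the title. Grouping was by title, as the columns are named, and were the treatment field right instead, every FcCD70 direction here would turn round. The libraries held 18159685 to 23527899 reads assigned to genes. The FcCD70 library numbered 2 had the lowest median correlation with the others (Pearson r across genes 0.970, against 0.972 to 0.979). The cells carried the RNA of CD4 T cells and Tregs: all 14 T cell identity genes were measured, with a median of 98.2 RPKM (reads per 1000 bases of exon and 1000000 reads assigned to genes), and Foxp3 had 2788 to 6585 normalized counts, lowest in the FcCD70 library numbered 2. Cd8a, the CD8 alpha chain, had 0 to 13.1, whereas Cd8b1, the CD8 beta chain, had 110 to 195.

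An antibody heavy chain gene is assembled in B cell precursors from V, D and J segments, and the joined exon is spliced to the constant exons of Ighm, or of Ighd just downstream. IgM reaches the cell surface only with a light chain, such as kappa (Igkc), and with the signalling chains CD79A and CD79B. The heavy chain locus also gives rise to transcripts without a V segment, known as germline or sterile transcripts, which begin near the intronic enhancer between the J cluster and Ighm or just upstream of the D segment nearest to it. Such transcripts are known from both B and T lineage cells.

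The segments of the heavy chain locus with a mean of at least 10 reads, after scaling for depth, lay next to each other. They are the D segment nearest to the J cluster and all 4 J segments. The next D segment upstream, Ighd3-2, had 0 reads in each library and is shown for contrast, as are the first 60 bases of the Ighm constant exons, to which the J segments are spliced in an antibody transcript. Sequences are from GENCODE M21 (GRCm38, chromosome 12, minus strand), printed 5′ to 3′. Capitals mark TGGGGNNNNGGN, the stretch that encodes the conserved tryptophan-glycine motif of heavy chain J segments.
Ighd3-2 (chr12:113448214-113448229): agacagctcaggctac
Ighd4-1 (chr12:113430528-113430538): ctaactgggac
Ighj1 (chr12:113429781-113429833): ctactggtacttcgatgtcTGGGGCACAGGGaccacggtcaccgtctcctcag
Ighj2 (chr12:113429468-113429515): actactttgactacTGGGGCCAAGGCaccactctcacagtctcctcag
Ighj3 (chr12:113429085-113429132): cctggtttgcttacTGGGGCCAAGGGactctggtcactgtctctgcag
Ighj4 (chr12:113428514-113428567): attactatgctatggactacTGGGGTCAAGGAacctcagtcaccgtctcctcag
Ighm, first 60 bases (gene at chr12:113418558-113422730): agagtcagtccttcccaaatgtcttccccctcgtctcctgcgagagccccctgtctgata

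Searched on both strands, the motif was in 4 of 4 annotated heavy chain J segments, in 0 of 5 kappa and 0 of 5 lambda J segments, in 0 of 19 D segments in 11 of 301 V gene transcripts (3.65%), and in 13 of 21 of the much longer constant region transcripts (61.9%). The match describes the segments by their sequence and is no measurement of these cells.

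Ighm (ENSMUSG00000076617) was the most abundant of the 9 genes by a wide margin and varied little between libraries. It had 35666, 33780, 33965 and 32628 normalized counts (reads divided by the authors' size factor of each library) in the untreated libraries numbered 1 to 4. In the FcCD70 libraries numbered 1 to 3 it had 36720, 35254 and 32655. The groups overlapped, the highest value being FcCD70 number 1 and the lowest untreated number 4, and the coefficient of variation over the 7 libraries was 4.52%. Ighm took 0.159% to 0.184% of all reads, which as RPM (reads per 1000000 assigned reads) came to 1681 ± 81.1 in the untreated group (SD, n = 4) and 1718 ± 129 in the FcCD70 group (SD, n = 3). Per length it had 900 ± 50.8 RPKM (SD, n = 7), rank 19 among 14469 genes with reads and at least 200 bases of exon. Lck, the kinase that starts T cell receptor signalling, had 257 RPKM, and Cd3d, a chain of the CD3 complex, had 412.

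**Figure D1:**
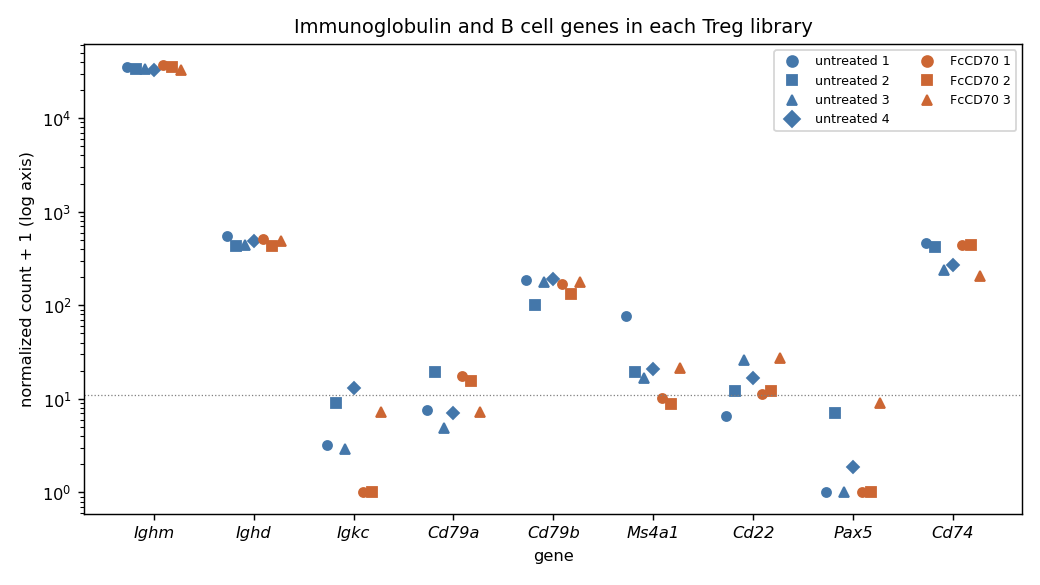
Normalized count plus 1 (log axis) of the 9 genes in each of the 7 libraries (blue untreated, orange FcCD70, the marker shape giving the replicate number; the dotted line is the mean of 10 normalized counts required for testing). Ighm lies between 32628 and 36720 in every library, whereas Cd79a, Cd22, Pax5 and Igkc stay at or under 26.5.

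Ighd, the IgD heavy chain gene (ENSMUSG00000104213, chr12:113406604-113416324), begins 6.41 kb downstream of the Ighm start and in B cells is reached by transcripts that read through Ighm. Its normalized counts were 546, 427, 439 and 482 untreated and 515, 432 and 484 with FcCD70. These values overlapped between the groups and lay within 426.8 and 545.8. On the RPKM scale Ighd had 12.3 ± 1.26 (SD, n = 7) against 900 for Ighm, and each library held 65.3 to 81.5 Ighm reads per Ighd read, 2 genes of nearly equal exon length (1886 and 1900 bases).

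The other constant region genes of the locus had few or no reads. These are the genes to which an activated B cell switches its heavy chain. Over the 6 IgG, IgE and IgA genes, 188 reads were counted in the 7 libraries together, 15 to 50 in each, and 107 of them fell in Igha (5.50 to 24.9 normalized counts). Ighg3 had 39 reads, and Ighg2c had 0 in all libraries. The FcCD70 library numbered 2 held 17 of 18 Ighg2b reads and all 8 Ighe reads. That numbered 1 held 12 of 16 Ighg1 reads. The IgG genes resemble each other closely, and how reads that map to several genes were counted is not given in the sources used here.

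Upstream of Ighm nearly all segment reads lay in the J cluster and the D segment nearest to it. Ighd4-1, which begins 7.81 kb upstream of Ighm, had 169, 103, 117 and 102 normalized counts untreated and 162, 93.2 and 125 with FcCD70. Both libraries numbered 1 were highest, and the groups overlapped. The other 11 rows named as heavy chain D segments had 8 reads in total, 6 of them in Ighd2-4 and 2 in Ighd1-1, and the other 9 had 0.

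All 4 J segments had reads in every library. The first, Ighj1, which begins 7.10 kb upstream, had 253, 147, 158 and 134 normalized counts untreated and 157, 85.4 and 166 with FcCD70. Ighj2 had 184, 207, 113 and 87.0 untreated and 158, 35.9 and 136 with FcCD70. Ighj3 ranged from 59.5 to 141 and Ighj4 from 59.5 to 176 over the 7 libraries. Ighj1, Ighj2, Ighj3 and Ighj4 were each lowest in the FcCD70 library numbered 2, the library that correlated least with the others. The J segments summed to 240 normalized counts there, against 398 to 726 in the other 6 libraries. Relative to Ighm the 4 J segments had 6.82 reads per 1000 Ighm reads in that library and 12.2 to 20.4 in the others. The annotated exon length of the 4 J rows is 48 to 100 bases and that of Ighd4-1 is 11, so no value per length is given for them. A read that spans a J segment and the Ighm exons overlaps 2 annotated genes, and how such reads were counted is not given in the sources used here.

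V segments, the part that an assembled heavy chain gene carries upstream of D and J, were nearly without reads. Of the 77 rows named as heavy chain V segments, 69 had 0 reads in all 7 libraries and 8 had some, 44 reads in total and 3 to 10 per library. The highest, Ighv1-54, had 20 reads and Ighv1-47 had 16 over the 7 libraries. The annotation lists 113 heavy chain V genes, of which 75 have a row in the table, and the others were not analysed here.

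**Figure D2:**
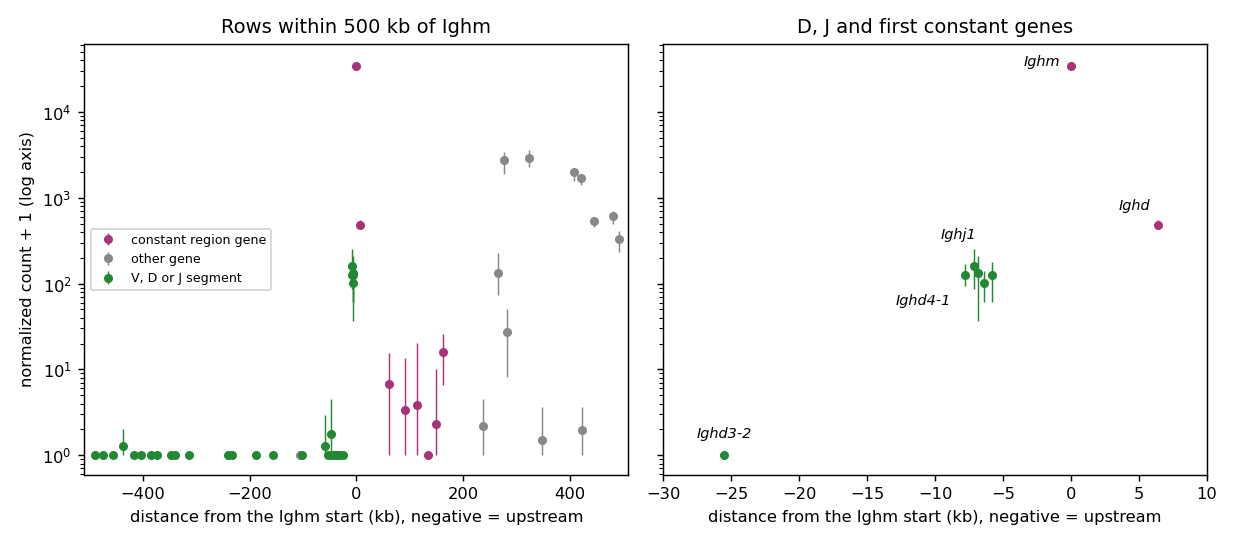
Mean normalized count plus 1 (log axis, bars from the lowest to the highest of 7 libraries) of every row within 500 kb of Ighm against the distance of its start from the Ighm start, negative values lying upstream. The right panel enlarges the D and J segments and the first constant genes, where Ighd4-1 and the 4 J segments have means of 101 to 157 and Ighd3-2 has 0.

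Further downstream, past the constant region genes, lie genes outside the immunoglobulin families. Of 53 rows within 500 kb of Ighm, 27 had reads and 17 had a mean of at least 10 normalized counts. Those 17 were Ighm, Ighd, Igha, Ighd4-1, the 4 J segments and 9 genes outside the immunoglobulin families. Among these 9, Mta1, a subunit of a chromatin remodelling complex, had 46.6 RPKM, and Crip1, a small LIM domain protein gene, 59.2, against 900 RPKM for Ighm. Tmem121, the non-immunoglobulin gene nearest to the constant genes among these rows, had 9 reads in total.

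Light chain reads were close to 0. Igkc, the kappa constant gene (ENSMUSG00000076609, chr6:70726435-70726966), had 2, 8, 2 and 14 reads in the untreated libraries numbered 1 to 4, and 0, 0 and 7 in the FcCD70 libraries. The libraries at 0 allow up to 3 reads, or 0.156 and 0.165 RPM. Per length Igkc had 0.404 RPKM, and Ighm had 900. The 3 lambda constant genes Iglc1, Iglc2 and Iglc3 had 1 read together, in Iglc3. Of 76 kappa V rows, 71 had 0 reads, and 81 of the 96 reads in this class fell in 1 row, Igkv2-109 (4 to 17 reads per library). The annotation lists 100 kappa V genes, and those without a row were not analysed here. The 5 kappa J segments had 3 reads together, against 3622 reads in the 4 heavy chain J segments.

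The signalling chains of the B cell receptor differed from each other. CD79A and CD79B are both needed to carry IgM to the surface and to signal from it. Cd79a (ENSMUSG00000003379, chr7:24897381-24902197) had 6.60, 18.2, 3.88 and 6.09 normalized counts untreated and 16.6, 14.6 and 6.17 with FcCD70. These values rest on 4 to 18 reads per library. Cd79b (ENSMUSG00000040592, chr11:106311341-106314762) had 187, 99.9, 177 and 189 untreated and 168, 133 and 177 with FcCD70. Both libraries numbered 2 were the lowest, and the groups overlapped. On the RPKM scale Cd79b stood at 5.56 ± 1.12 and Cd79a at 0.351 ± 0.204 (SD, n = 7 for each), and the highest Cd79a value, 0.627, lay below the lowest Cd79b value, 3.51. Fewer cells that carry a transcript and less of it per cell cannot be told apart in these bulk libraries.

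The RNA of Ms4a1 and Cd22, which encode surface proteins of mature B cells, was at low levels. Ms4a1, which encodes CD20 (ENSMUSG00000024673, chr19:11249675-11266241), had 75.9 normalized counts in the untreated library numbered 1, and 18.2, 15.5 and 20.0 in those numbered 2 to 4. With FcCD70 it had 9.32, 7.86 and 20.3, so that 1 library stood above the other 6. Cd22, an inhibitory co-receptor of the B cell receptor (ENSMUSG00000030577, chr7:30865402-30880342), had 5.50, 11.1, 25.2 and 15.7 untreated and 10.4, 11.2 and 26.5 with FcCD70. Ms4a1 and Cd22 each have an annotated gene on the opposite strand, as does Pax5, and since the strand setting of the counting is not given, reads of the overlap may be shared. Pax5, the factor that fixes B cell identity (ENSMUSG00000014030, chr4:44524757-44710487), had 0 reads in 4 libraries. It had 6 and 1 in the untreated libraries numbered 2 and 4, and 9 in the FcCD70 library numbered 3.

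The wider list of B cell defining genes, chosen with earlier results of these data known, was low as well. Of its 15 genes 14 had a row, and 9 of these had a mean under 10 normalized counts, among them Cr2, a complement receptor of B cells, with 0 in all 7 libraries. The median of the 14 was 0.0556 RPKM, against 98.2 for the T cell identity genes. Their reads summed to 14.5 to 19.2 RPM untreated and 11.5 to 15.2 with FcCD70. With exact Poisson 95% intervals, which cover counting error only, the highest library (untreated number 1) had 17.3 to 21.3 RPM and the lowest (FcCD70 number 2) 10.04 to 13.2. Most of these reads were Cd79b and Ebf1, and without these 2 genes, a choice made after the values were seen, 1.87 to 4.96 RPM were left. Each library held 92.9 to 149 Ighm reads for every read of the 14 genes together. The labels name no B cell sample, so the same ratio in B cells was not measured here.

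**Figure D3:**
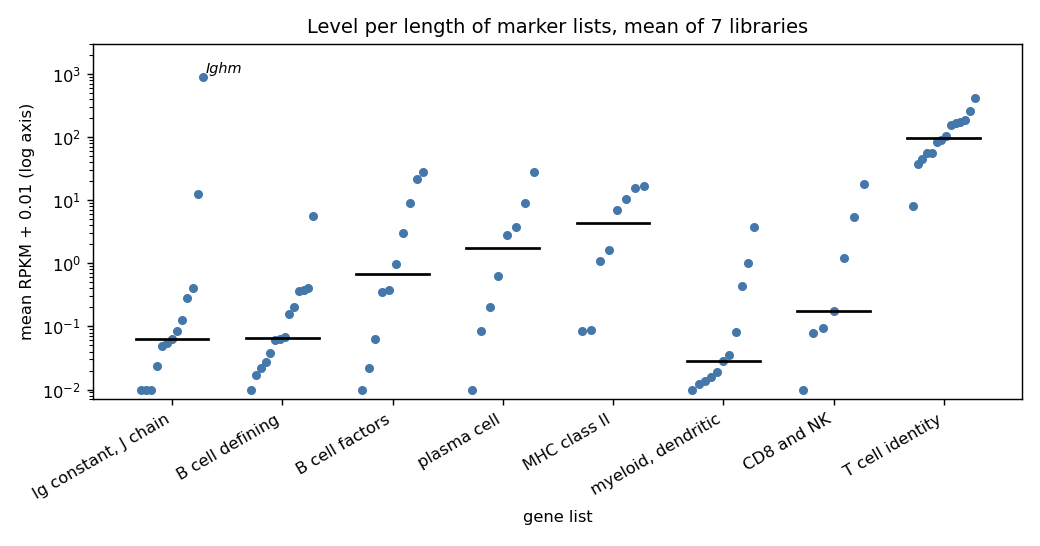
Mean RPKM plus 0.01 over 7 libraries (log axis) of each gene in 8 marker lists, with the median of each list as a black line. Ighm, at 900 RPKM, lies above every T cell identity gene, of which Cd3d is highest at 412, while the B cell defining genes have a median of 0.0556.

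Some genes of B cell programs were well above these low levels. In the list of B cell factors, 7 of 10 measured genes had a mean of at least 10 normalized counts. They included Bach2, a repressor also used by Tregs, with 27.9 RPKM, Tcf3, an E protein of early lymphocytes, with 21.5, and Pou2af1, a coactivator of octamer-driven transcription, with 8.98. Ebf1, the factor that acts with Pax5 to specify B cells, was not among the higher genes per length. Its normalized counts were 97.9, 113, 57.3 and 38.3 untreated and 82.9, 65.1 and 58.2 with FcCD70. Over 9756 bases of exon this came to 0.372 RPKM, near Cd79a (0.351) and Igkc (0.404). Among receptor signalling genes, Ralgps2 had 3.18 RPKM and Cd72, an inhibitory co-receptor, 6.70, and Fcrl1, an Fc receptor-like molecule known from B cells, 3.87. Cd37 and Tnfrsf13b, the TACI receptor, led the surface list with 72.1 and 27.3 RPKM. Bach2, Ebf1, Cd72 and Cd37 also have an annotated gene on the opposite strand, so reads of the overlap may be shared here too.

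Genes of antibody-secreting cells were mixed in level. Xbp1 and Irf4, factors of plasma cells that activated T cells also use, had 28.4 and 8.99 RPKM. Jchain, which links IgM into polymers, had 0 to 8.07 normalized counts, and Tnfrsf17, the plasma cell receptor BCMA, had 0 reads in all 7 libraries. In the list of precursor genes Rag1, Rag2 and Igll1 had 0 reads in all 7 libraries (the rebuilt library had 2 in Rag2 and 1 in Igll1), Dntt, which adds untemplated nucleotides during recombination, had 23.2 to 139 normalized counts, and Vpreb1, a surrogate light chain gene, 0 to 24.9.

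Other cell types were measured with the same lists. Of 11 myeloid and dendritic genes with a row, 9 had a mean under 10 normalized counts, and Cd68 and Batf3 led with 3.70 and 1.02 RPKM. The listed genes Itgax, Lyz2 and Itgam had no row, so these myeloid markers were not covered. The genes with a row summed to 6.84 to 8.29 RPM untreated and 5.39 to 7.33 with FcCD70. The CD8 and NK list summed to 21.8 to 40.4 RPM untreated and 26.1 to 44.9 with FcCD70, led by Klrd1 (17.9 RPKM) and Cd8b1 (5.44), while Ncr1 had 0 reads in all libraries.

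Cd74 encodes the invariant chain, which guides MHC class II molecules to the compartment where peptide is loaded, and is known from B cells and other antigen-presenting cells. Cd74 (ENSMUSG00000024610) had 461, 420, 237 and 267 normalized counts untreated and 438, 444 and 205 with FcCD70. The libraries thus fell apart by replicate number and not by treatment: the numbers 1 and 2 had 441 ± 17.0 (SD, n = 4) and the numbers 3 and 4 had 236 ± 31.3 (SD, n = 3), with no overlap. What a replicate number stands for is not given in the labels, and this split was known from earlier results, so it is described without a test. Of all 11083 genes with a mean of at least 10, 11.1% lay higher in the numbers 1 and 2 without overlap, and 11.1% lay higher in the numbers 3 and 4.

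Beside this background, 3 of the 7 members with a mean of at least 10 split by number. Cd79a was higher in the numbers 1 and 2, at 6.60 to 18.2 against 3.88 to 6.17 normalized counts, on 4 to 18 reads per library. Cd22 was higher in the numbers 3 and 4, at 15.7 to 26.5 against 5.50 to 11.2. Ighm overlapped, with 33780 to 36720 in the numbers 1 and 2 and 32628 to 33965 in the numbers 3 and 4. The FcCD70 sample numbered 4, whose values can be rebuilt from the authors' mean over 8 libraries, had 237 for Cd74, 15.7 for Cd22 and 15.7 for Cd79a. With it included, Cd74 and Cd22 still did not overlap, and Cd79a did. The same rebuilt library had 29804 for Ighm, below the other 7.

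The class II genes themselves did not follow Cd74. Of the 7 genes of this list with a mean of at least 10, Cd74 alone was higher in the numbers 1 and 2, and 4 were higher in the numbers 3 and 4. H2-Oa, a chain of the H2-O molecule that restrains peptide loading, had 198, 263, 717 and 666 normalized counts untreated and 248, 384 and 645 with FcCD70. The numbers 3 and 4 were 2.47-fold higher for H2-Oa (676 ± 37.0, SD, n = 3, against 273 ± 79.0, SD, n = 4). H2-Ob, its partner chain, was 1.20-fold higher, H2-DMa, which catalyses peptide loading, 1.33-fold, and Ciita, the master activator of class II genes, 2.45-fold, from 9.07 to 22.2. With the rebuilt library, at 10.8 for Ciita, this gene overlapped, and H2-Oa, H2-Ob and H2-DMa did not. H2-Ab1 and H2-Eb1, chains of the presenting molecules, overlapped, and H2-Aa had a mean under 10. On the RPKM scale H2-Ob (17.0), H2-Oa (15.5) and Cd74 (10.4) were higher than H2-Ab1 (1.63), H2-Eb1 (1.08) and H2-Aa (0.0790). H2-Oa, H2-DMa, Ciita and H2-Eb1 each have an annotated gene on the opposite strand.

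**Figure D4:**
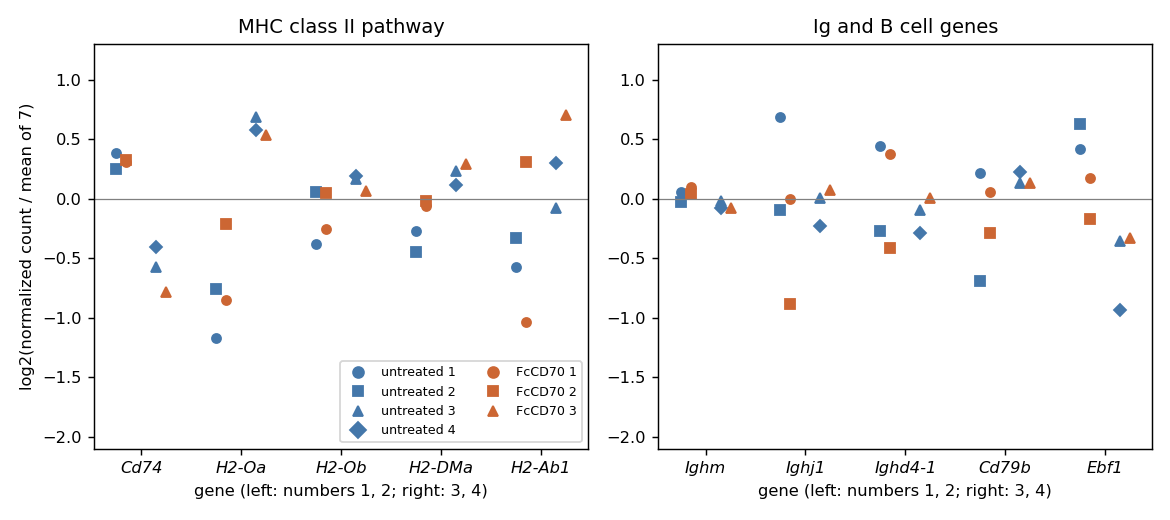
Normalized counts of 5 class II pathway genes and 5 immunoglobulin or B cell genes, each as log2 of its ratio to its mean over 7 libraries, with the numbers 1 and 2 to the left and 3 and 4 to the right of each gene. Cd74 is higher on the left and H2-Oa, H2-Ob and H2-DMa on the right, while Ighm stays close to 0 in all 7 libraries.

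FcCD70 against untreated addressed whether CD27 signalling moved these genes. The log2 fold change of Ighm (FcCD70 minus untreated) was 0.02 with an SE of 0.16 (95% interval -0.34 to 0.38), and 2 of 3 same-numbered pairs were higher. For Ighd it was 0.03 (SE 0.15, 95% interval -0.32 to 0.37), and for Cd79b 0.08 (95% interval -0.42 to 0.59). Cd74 had -0.07 (95% interval -0.45 to 0.31). None of the 7 members tested passed limma's test with the replicate number as a block (adjusted p = 0.9998 for each), and none had an unadjusted p under 0.05, where over all 11083 genes tested 0% passed and 1.7% (188 genes) had an unadjusted p under 0.05. With edgeR and DESeq2 on the recovered reads 0 of the 7 passed as well; over all genes edgeR passed 0, with 168 at an unadjusted p under 0.05, and DESeq2 passed 1, with 141. Pax5 and Igkc had a mean under 10 and were tested only without that filter, where neither passed (limma's adjusted p = 1 and 0.926).

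The intervals of the low genes were wide. Among the tested members Ms4a1 differed most, by -1.22 on the log2 scale (95% interval -2.71 to 0.28), and was lower in 2 of 3 pairs. The value depended on single libraries: it was -0.37 without both libraries numbered 1, -0.59 without the untreated one alone (no block), and -2.01 without both numbered 3, where limma's adjusted p was 0.946. Cd79a had 0.49 (95% interval -1.11 to 2.09) and Cd22 had 0.30 (95% interval -1.03 to 1.62). The median over the 7 members was 0.03, beside -0.00351 over all genes tested. In the authors' deposited table, over 8 libraries and turned to FcCD70 minus untreated, Ighm had a log2 fold change of -0.02 and Ms4a1 one of -1.01, and the DESeq2 adjusted p was 0.99999 for all 9.

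The segments of the locus did not pass either. On the log2 scale Ighj1 differed by -0.47 (95% interval -1.02 to 0.09), Ighj2 by -0.81 (95% interval -1.84 to 0.21) and Ighj4 by -0.46 (95% interval -1.18 to 0.26), with the FcCD70 library numbered 2 as the lowest library for each. Ighj3 had -0.12 and Ighd4-1 had -0.04. In the other lists 0 genes passed limma in either direction: of 9 tested receptor signalling genes 7 lay above 0 and 2 below (median 0.21), of 7 B cell factors 3 and 4 (median -0.18), and of 7 class II genes 4 and 3 (median 0.00682). Of all 11083 genes tested, 5443 lay above 0 and 5640 below, and the counts of the lists were not tested against this. Irf4, with -0.32 (limma's adjusted p = 0.9998), was the only gene of the 11 lists whose unadjusted p was under 0.05. Over all 11083 genes tested, 188 (1.7%) had such a p in limma's test, so 1 gene in these lists is no result about them.

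**Figure D5:**
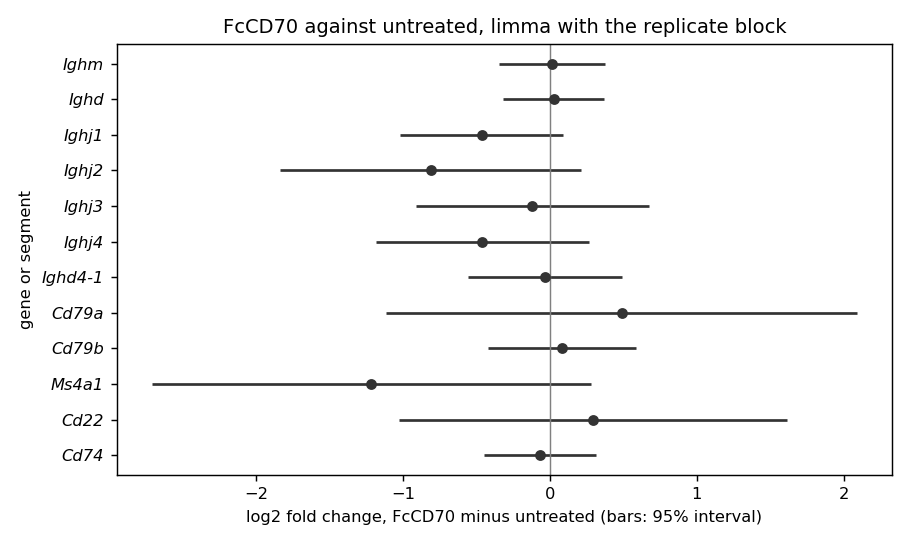
Log2 fold change, FcCD70 minus untreated, with its 95% interval from limma with the replicate number as a block, for the 7 tested members and 5 heavy chain segments. Every interval spans 0, and those of Ighm, Ighd and Cd74 are the narrowest, from -0.34 to 0.38 for Ighm.

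The genes whose pattern over the 7 libraries was most like that of Ighm were Eif4g2, Rnft1, Bbs10, Zfp846 and Ptpn12, with Pearson r of 0.987, 0.983, 0.981, 0.979 and 0.974 on log2(value + 1), the highest among 9533 genes with a mean of at least 50 after leaving out mitochondrial genes, antigen receptor segments and rows named as gene models or pseudogenes. Eif4g2 is a translation initiation factor gene. Ighm itself spanned only 0.17 on the log2 scale between its lowest and highest library, and libraries of the same replicate number share whatever that number stands for, so these values describe 7 libraries only. Among the members Cd74 had an r of 0.792 with Ighm, Cd79a 0.483, Ighd 0.359, Cd79b -0.0445, Ms4a1 -0.0923, Pax5 -0.665, Cd22 -0.686 and Igkc -0.857. Those of Cd79a, Ms4a1, Pax5, Cd22 and Igkc rest on few reads.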

How the data were processed

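The submitters' processing notes list the build GRCm38.p4 and the tools HTSeq, TopHat2, DESeq2 and SAMtools without saying what each did. Libraries came from a strand-marking mRNA kit, per the labels' protocols. The deposited library columns hold a normalized signal, read counts that the authors divided by a size factor, and all values were whole multiples of 1 step (100% within 0.01), so reads were recovered. The deposited table also gives the authors' mean, log2 fold change, a score (the Wald statistic) and p-values. RPM and RPKM were computed from the recovered reads and GENCODE M21 exon lengths (19615 of 19703 rows matched). A count of 0 allows up to 3 reads, and such limits cover counting error only.

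Limma (3.58.1, with a trend) was fitted to log2(value + 1) of all genes with a mean of at least 10, with Benjamini-Hochberg adjustment and the replicate number as a block (the name of the authors' table calls it paired). Fold changes on this scale understate those of low genes. The untreated library numbered 4 has no partner, so fold changes rest on 3 pairs. Deviations of same-numbered libraries from their group means correlated at 0.303, 0.0144 and 0.435. edgeR (4.0.16) and DESeq2 (1.42.0) were run on the reads as alternatives. The fits were also run on simulated counts, with the same spread setting for every gene and no difference between replicate numbers. Such counts cannot show how the fits behave under the split by number in these data. Members, the 11 lists (102 of 111 listed genes, members included, had a row) and tests were chosen with earlier results of these data known. Named genes were the members, the 2 most abundant other genes of each list, rows within 500 kb of Ighm, the 3 most abundant segments and the 5 genes most like Ighm; further genes were named after their values were seen.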

Additional observations from a re-analysis of the deposited data

Results flagged for a closer look

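In the untreated group of 4 libraries, 16 measures were tested for 1 library far from the other 3 (Dixon's ratio of gap to range, at its 95% critical value), and 4 were past it. Chance flags about 1 in 20 such groups if the values are normally distributed. Counts of few reads, such as those of Pax5, need not be, so that rate may not hold here. Ms4a1 had 75.9 normalized counts in the library numbered 1, with the next at 20.0. Cd79b had 99.9 in the library numbered 2, with the next at 177. Pax5 had 6.05 in the library numbered 2 (6 reads), with the next at 0.870. The summed B cell defining genes had 19.2 RPM in the library numbered 1, with the next at 14.9, and this sum contains Ms4a1.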

How the results depend on the processing

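Over 20 alternatives to the fit, 0 members passed in any. Over all genes 0 passed in 16 of them, DESeq2 called 1 gene, and leaving out replicates gave 0 to 19 (19 without the libraries numbered 2, 6 without those numbered 3). With neither the FcCD70 library numbered 2 nor the block, and a covariate for the split by number (chosen after seeing the data), 6 genes passed. Without the replicate block the log2 fold change was -0.000929 for Cd79b and 0.0369 for Cd74, each with its sign turned, and no call changed. With the rebuilt eighth library, also chosen after seeing the data, Ighm had -0.0209 and Ighd -0.0460. Both libraries of a number were left out with the block kept, and single libraries were left out without it. Over these fits together the ranges were -0.00736 to 0.0820 for Ighm, -0.0424 to 0.0847 for Ighd and -0.22 to 0.20 for Cd79b. They were -0.21 to 0.51 for Cd22 and -0.15 to 0.40 for Cd74. With the block kept, Cd22 had 0.04 to 0.43 and Cd74 -0.14 to 0.0031, so Cd22 turned its sign only without the block. The signs of these 5 genes are thus not settled across the fits, and the cause was not tested. Cd79a (0.31 to 0.97) and Ms4a1 (-2.01 to -0.37) kept their signs in the 13 and 19 alternatives in which they passed the filter, and their sizes moved by over 1.5 times. The mean Ighm level moved between 1673 and 1716 RPM, and the B cell defining sum between 14.3 and 15.6. Depth limits Cd79a, Pax5, Cd22 and Igkc most, at 0 to 30 reads per library.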
